A study of Mus musculus with 9 samples.

Results

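Lungs of TGFα mice treated with pirfenidone were compared with lungs of TGFα mice treated with vehicle. The comparison used 6 of the 9 libraries of total lung RNA in the series, taken by their labels. These were 3 libraries from TGFα mice on doxycycline (Dox) for 6 weeks with pirfenidone and 3 from TGFα mice on Dox for 6 weeks with vehicle. It covered the 13849 of 16165 genes of the deposited table that had more than 1 RPKM (a read count divided by gene length and by library size) in at least 3 of the 9 libraries. Drug or vehicle was given over the last 3 weeks, per the series description. The remaining 3 libraries were from control mice given vehicle. Their labels name no Dox, the series description does not settle whether they received it, and they served here for the estimate of the spread and for levels set beside the comparison. Both compared groups carried the TGFα transgene and received Dox, and no control mice received pirfenidone, so the drug was measured in TGFα lungs alone. The dose and route of pirfenidone, the promoter of the transgene, and the age, sex and strain of the mice are not stated by the labels or the series description. The labels number the libraries within a group and do not say that each came from a separate mouse, so p values measure the spread between these libraries, which may be technical.

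TGFα (transforming growth factor alpha) is a ligand of the epidermal growth factor (EGF) receptor, and mice that overexpress it in the lung develop progressive pulmonary fibrosis. In fibrosis, activated fibroblasts deposit fibrillar collagens, fibronectin and other matrix proteins around airways and vessels and under the pleura. Pirfenidone is a small-molecule drug given to patients with idiopathic pulmonary fibrosis. It is known to reduce proliferation and collagen synthesis of cultured fibroblasts, and its direct molecular target is not settled.

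The vehicle libraries held 16327952 to 18874158 reads and the pirfenidone libraries 11428709 to 14125367, so every pirfenidone library was shallower than every vehicle library, and depth and drug cannot be told apart. Markers of surfactant-producing alveolar type 2 cells summed to between 20993 and 31302 RPKM in the 6 libraries, as lung tissue should give. In a principal component analysis, the second component, with 25.4% of the variance, set vehicle libraries 2 and 3 (-26.9 and -27.1) against pirfenidone libraries 1 and 2 (28.3 and 33.6). Vehicle library 1 (3.7) and pirfenidone library 3 (-16.4) lay between them. Pirfenidone library 3 correlated more closely with vehicle libraries 2 and 3 (r = 0.983 and 0.988 over the tested genes) than with pirfenidone libraries 1 and 2 (r = 0.964 and 0.957). Marker genes of skeletal muscle, a tissue foreign to the lung, summed to 1728, 686 and 52.3 RPKM in the vehicle libraries and to 522, 2764 and 79.2 RPKM in the pirfenidone libraries. Markers of adipocytes summed to 878, 544 and 516 RPKM with vehicle and to 1328, 1336 and 600 RPKM with pirfenidone. Their part in the results below was not tested. A fit without the muscle and fat genes, given below, removed only those genes and cannot test it. The mouse Tgfa gene, whose row may or may not collect reads of the transgene, stood at 7.80, 6.37 and 6.38 RPKM with vehicle and at 5.67, 5.60 and 5.67 RPKM with pirfenidone. The 2 groups did not overlap, and the difference did not pass (log2 fold change -0.23, SE 0.11, limma adjusted p = 0.252). In the controls the gene stood at 7.47, 7.09 and 5.95 RPKM. The control mean was 6.84 RPKM and the vehicle mean 6.85 RPKM, so this row showed no excess in TGFα lungs.

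**Figure D1:**
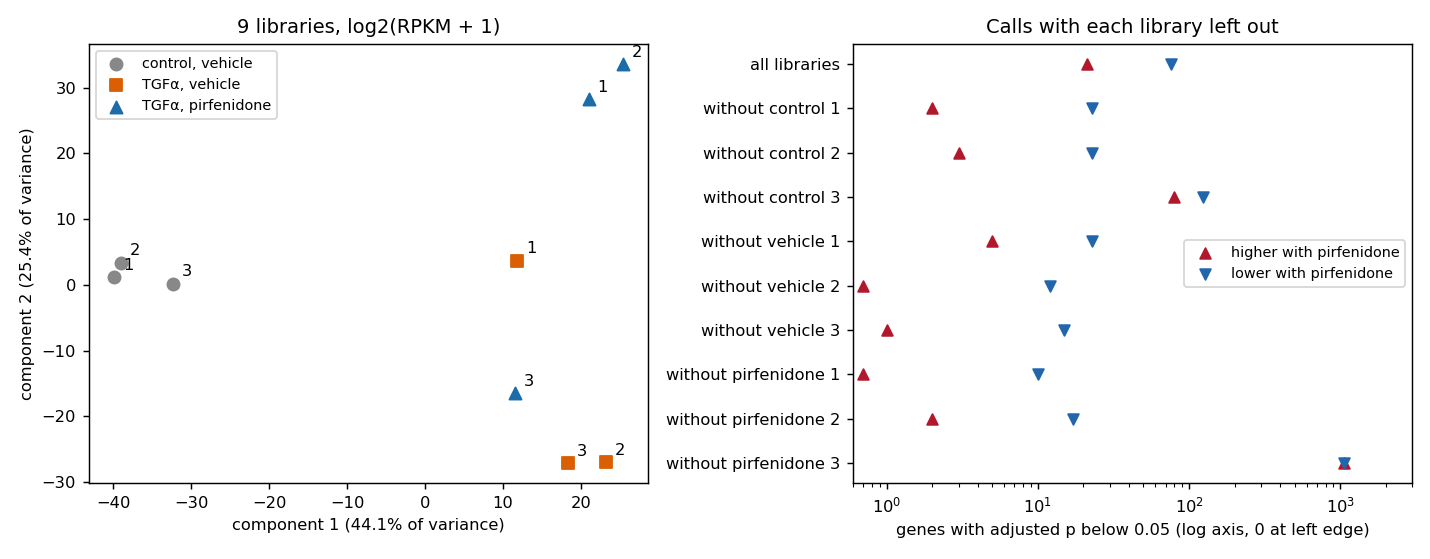
Left, the first principal component (horizontal axis, 44.1% of the variance) against the second (vertical axis, 25.4%) of log2(RPKM + 1) over 13849 genes, with 1 point per library and its number. Right, numbers of genes that passed with pirfenidone higher or lower (log axis, zero counts drawn at the left edge) with all libraries and with each library left out: from 0 to 1060 higher and from 10 to 1064 lower.

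Pirfenidone was associated with a short list of genes, most of them lower than with vehicle. With all 9 libraries in the model, 76 genes were lower (0.549% of those tested) and 21 higher (0.152%) at an adjusted p below 0.05, by limma with Benjamini-Hochberg adjustment across 13849 genes. The 3 pirfenidone values lay entirely above the 3 vehicle values in 2114 genes (15.3%) and entirely below them in 1265 (9.13%), and all 97 genes that passed (0.7%) were among these. The median log2 fold change of all tested genes was 0.03. The 6 TGFα libraries fitted alone, without the controls in the estimate of the spread, called 11 genes lower and 0 higher. The counts also depended on single libraries. Without pirfenidone library 3, 1060 genes were higher (7.65%) and 1064 lower (7.68%), and with vehicle library 1 also left out 1381 (9.97%) and 1651 (11.9%). All 97 genes kept their calls in both of these fits and without control library 3, where 203 genes passed. Leaving out control library 1 kept 25 of the 97, control library 2 25, vehicle library 1 27, vehicle library 2 12, vehicle library 3 16, pirfenidone library 1 10 and pirfenidone library 2 18. The 9 genes that passed whichever library was left out were Lmbrd2, Zbed6, Klhl11, Mib1, Nbeal1, Arhgap5, Xrn1, Nrip1 and Uhmk1, and all were lower with pirfenidone. With the 6 TGFα libraries alone these 9, Tnpo1 and Lnpep were the 11 that passed. They are named here because of this count, after their values were seen.

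Lmbrd2, a multi-pass membrane protein of the LMBR1 family that in human cells binds the β2-adrenergic receptor, had the smallest p. Lmbrd2 lies on chromosome 15, 9140528 to 9202483 (GRCm38), beside and partly overlapping Skp2. Lmbrd2 measured 6.01, 5.95 and 4.97 RPKM in the vehicle libraries and 0.833, 0.844 and 0.906 RPKM in the pirfenidone libraries. Every pirfenidone library, library 3 included, was far below every vehicle library and close to the controls, which stood at 0.976, 0.827 and 0.815 RPKM. The gene fell 6.55-fold (log2 fold change -1.83, SE 0.10, limma adjusted p = 0.000629), and the adjusted p reached 0.0128 at most when any 1 library was left out. No source states whether counting used the strand, so reads of overlapping genes are uncertain. Skp2 measured 1.54, 2.21 and 2.05 RPKM with vehicle and 1.82, 1.82 and 3.05 RPKM with pirfenidone.

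Klhl11, a kelch-repeat adaptor that hands substrates to the cullin 3 ubiquitin ligase (chromosome 11, 100457122 to 100472782), measured 4.60, 5.15 and 4.85 RPKM with vehicle and 1.04, 0.963 and 1.42 RPKM with pirfenidone. It fell 4.26-fold (log2 fold change -1.46, SE 0.12, limma adjusted p = 0.00318). Nbeal1, a large BEACH-domain protein of the neurobeachin family (chromosome 1, 60178740 to 60338328), measured 3.97, 3.67 and 3.74 RPKM with vehicle and 0.846, 1.06 and 1.06 RPKM with pirfenidone, a 3.84-fold fall (log2 fold change -1.27, SE 0.10, limma adjusted p = 0.00289). In both genes the spread within each group was small against the gap between groups. Zbed6, a transcriptional repressor encoded by a domesticated DNA transposon within an intron of Zc3h11a (chromosome 1, 133655879 to 133660885), measured 16.4, 16.1 and 16.2 RPKM with vehicle and 3.48, 3.58 and 4.67 RPKM with pirfenidone. It fell 4.16-fold (log2 fold change -1.82, SE 0.12, limma adjusted p = 0.00109). Reads of unspliced Zc3h11a RNA cannot be told apart from those of Zbed6, and Zc3h11a itself measured 55.3, 59.4 and 62.3 RPKM with vehicle and 62.3, 60.4 and 70.6 RPKM with pirfenidone.

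The promoters of Lmbrd2, Klhl11 and Nbeal1, 3 of the genes that fell whichever library was left out, and that of Angptl7, described further on among the higher genes, are shown to let the lower genes be set beside a higher one. They run from 250 bases before to 50 after the start that the RefSeq promoter table uses (GRCm38.p6, 5′ to 3′ on the gene's strand). In Lmbrd2 and Nbeal1 that start lies downstream of the first base of the gene range given above, and in Nbeal1 the whole window lies inside the gene range. Capitals mark the GC box GGGCGG, which Sp-family factors bind, on either strand.
Lmbrd2 promoter, chr15:9140320-9140619, plus strand: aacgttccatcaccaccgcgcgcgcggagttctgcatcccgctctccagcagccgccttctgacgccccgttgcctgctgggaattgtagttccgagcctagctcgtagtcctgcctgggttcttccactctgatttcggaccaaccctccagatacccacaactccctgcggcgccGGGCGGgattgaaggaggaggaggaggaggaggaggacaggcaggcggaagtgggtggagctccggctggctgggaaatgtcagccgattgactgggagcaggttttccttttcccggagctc
Klhl11 promoter, chr11:100472733-100473032, minus strand: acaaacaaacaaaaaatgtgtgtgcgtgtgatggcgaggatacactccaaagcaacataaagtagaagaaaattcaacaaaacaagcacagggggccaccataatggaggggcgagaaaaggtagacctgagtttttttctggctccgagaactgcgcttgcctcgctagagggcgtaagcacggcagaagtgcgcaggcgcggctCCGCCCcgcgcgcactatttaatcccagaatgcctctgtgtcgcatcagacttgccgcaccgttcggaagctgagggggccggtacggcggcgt
Nbeal1 promoter, chr1:60180349-60180648, plus strand: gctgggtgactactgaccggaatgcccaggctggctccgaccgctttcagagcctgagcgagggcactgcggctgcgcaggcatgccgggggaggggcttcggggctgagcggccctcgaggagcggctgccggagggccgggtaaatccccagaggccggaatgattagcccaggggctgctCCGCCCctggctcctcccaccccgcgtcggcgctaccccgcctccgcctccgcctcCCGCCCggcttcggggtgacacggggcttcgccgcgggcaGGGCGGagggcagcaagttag
Angptl7 promoter, chr4:148500413-148500712, minus strand: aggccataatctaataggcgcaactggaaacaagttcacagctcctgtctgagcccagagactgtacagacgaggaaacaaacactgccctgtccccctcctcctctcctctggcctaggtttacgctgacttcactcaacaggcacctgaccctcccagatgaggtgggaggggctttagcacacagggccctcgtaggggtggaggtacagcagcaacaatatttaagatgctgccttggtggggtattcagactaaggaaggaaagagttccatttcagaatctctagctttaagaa
The GC content of these windows was 62.3% in Lmbrd2, 54.7% in Klhl11 and 73.3% in Nbeal1, with 21, 23 and 30 CpG pairs, against 51.3% and 4 CpG pairs in Angptl7, which held none of the 7 motifs searched. The median promoter GC content was 67.7% in the lower genes, 60.3% in the higher genes and 60.7% in all tested genes. Lmbrd2, Klhl11 and Angptl7 thus lay below the median of their own set, and the 4 windows do not stand for the sets. A GC box stood in 50 of the 62 lower genes with a promoter in the table (80.6%), in 9 of the 15 higher genes (60%) and in 63% of the 10935 promoters of tested genes. The CCAAT box (CCAAT) stood in 29%, 46.7% and 37.9% of the same sets. The E-box CACGTG, read by MYC and clock factors, stood in 9.68%, 0% and 9.98%, and the AP-1 site TGACTCA in 3.23%, 6.67% and 3.69%. The cAMP response element TGACGTCA stood in 0%, 6.67% and 3.07% and the TATA box TATAAA in 4.84%, 13.3% and 7.47%. The ETS core CCGGAAGT stood in 4.84%, 0% and 7.79%. These are matches of letters on either strand, in a window that covers neither distal enhancers nor the 3′ end, and they were not tested.

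The other lower genes that passed whichever library was left out were Mib1, Arhgap5, Xrn1, Nrip1 and Uhmk1. Mib1, the E3 ubiquitin ligase that lets Notch ligands be taken up and so signal, was the 1 gene of 21 tested in the Notch list to pass, against 0.7% of all genes in either direction. It measured 12, 13 and 12.4 RPKM with vehicle and 4.29, 3.41 and 5.04 RPKM with pirfenidone, and fell 2.94-fold (log2 fold change -1.37, SE 0.12, limma adjusted p = 0.00318). The groups were far apart, and the controls (4.42, 4.46 and 4.72 RPKM) lay among the pirfenidone values. Mib1 overlaps Mir133a-1hg, Mir133a-1, Mir1b and Mir1a-2, so the limit on reads of overlapping genes given for Lmbrd2 applies here too. Arhgap5, a GTPase-activating protein, measured 19.0, 20.0 and 18.8 RPKM against 7.19, 7.92 and 9.62 RPKM (adjusted p = 0.00524). Xrn1, the cytoplasmic exonuclease that degrades decapped mRNA from its 5′ end, measured 8.95, 7.30 and 6.95 RPKM against 2.91, 2.89 and 3.23 RPKM (adjusted p = 0.00576). Nrip1, a corepressor of nuclear receptors, measured 7.29, 8.19 and 7.63 RPKM against 3.19, 3.41 and 3.69 RPKM (adjusted p = 0.00524). Uhmk1, a kinase with a U2AF homology motif, measured 12.1, 12.8 and 12 RPKM against 5.36, 5.46 and 6.65 RPKM (adjusted p = 0.00539). Each of these 4 genes was lower in every pirfenidone library than in every vehicle library, with a log2 fold change between -1.14 and -0.97 (SE 0.09 to 0.11).

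The largest decrease by log2 fold change was Atp6v0a4, a subunit of the membrane sector of the vacuolar proton pump that is known from kidney intercalated cells. It measured 11.5, 7.51 and 6.73 RPKM with vehicle and 0.879, 1.08 and 2.89 RPKM with pirfenidone, with library 3 nearest to the vehicle group (log2 fold change -1.92, SE 0.29, limma adjusted p = 0.0371). Its adjusted p was as high as 0.174 when a single library was left out. Atp6v0a4 overlaps Tmem213 and D630045J12Rik among others, and the limit on reads of overlapping genes applies here too. Tnpo1 (transportin 1, a nuclear import receptor) measured 22.7, 22.0 and 21.7 RPKM with vehicle and 8.66, 8.50 and 11 RPKM with pirfenidone (adjusted p = 0.0074). Tmem245, Socs4 (a suppressor of cytokine signalling that targets the EGF receptor in human cells), Nebl (nebulette, an actin-binding protein) and Lnpep (an aminopeptidase of insulin-responsive vesicles) completed the 10 largest decreases among genes with a mean of at least 5 RPKM in the higher group, with log2 fold changes of -1.29, -1.23, -1.14 and -1.12 and adjusted p of 0.00996, 0.0235, 0.00928 and 0.00722. Their highest pirfenidone values were 5.04, 4.70, 15.8 and 2.19 RPKM, below lowest vehicle values of 9.76, 8.92, 27.9 and 4.89 RPKM.

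**Figure D2:**
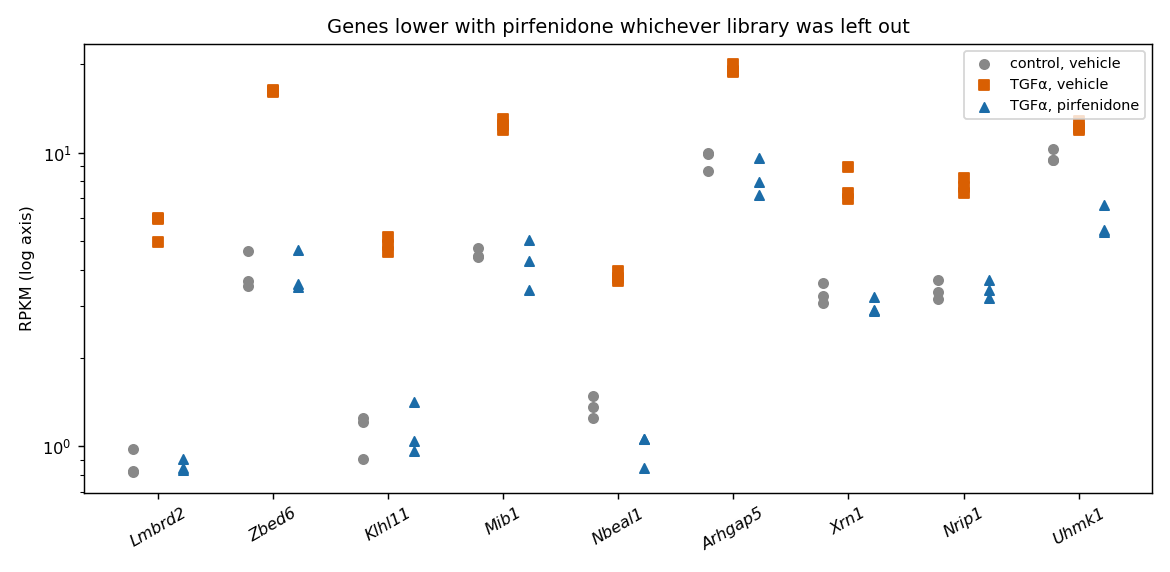
RPKM (log axis) in each of the 9 libraries for the 9 genes that were lower with pirfenidone whichever library was left out. Each point is 1 library. The 3 pirfenidone points lie below the 3 vehicle points in every gene, from 0.833 to 0.906 against 4.97 to 6.01 RPKM in Lmbrd2.

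Further lower genes are named here for their roles, after their values were seen, and their families were not tested. Ubiquitin pathway enzymes among them were Usp9x and Usp34 (deubiquitinases), Ubr1 (a ligase) and Xiap, a ligase that inhibits caspases. Xiap, the 1 gene of 29 in the apoptosis list to pass (0.7% of all genes passed), measured 29.7, 29.6 and 30.6 RPKM with vehicle and 19.8, 20.4 and 22.7 RPKM with pirfenidone (log2 fold change -0.50, SE 0.09, limma adjusted p = 0.0498). Usp9x measured 27.0, 27.9 and 28.2 RPKM against 20.1, 20.3 and 20.2 RPKM, a log2 fold change of -0.44 (SE 0.06, adjusted p = 0.0265). Nuclear and cohesin proteins included Nipbl, Stag2, Pds5a, Ranbp2 and Tpr, with log2 fold changes of -0.47, -0.52, -0.65, -0.58 and -0.46. Signalling proteins included Rictor, the defining subunit of mTOR complex 2, with 11.7, 10.8 and 11.2 RPKM against 7.65, 6.76 and 8.10 RPKM (adjusted p = 0.0393). Lrrk2, a large kinase found in type 2 cells, measured 34.8, 30.6 and 30.9 RPKM against 14.4, 13.2 and 19.2 RPKM (adjusted p = 0.0273). Mme (neprilysin, a peptidase of the alveolar surface) measured 39.9, 34.8 and 37.9 RPKM against 17.4, 17.3 and 25.5 RPKM (adjusted p = 0.0496). For each of these genes the 2 groups did not overlap, and each call was lost without at least 1 library. Hspa4l, an HSP110-family chaperone and the 1 gene of 24 in the heat shock list to pass, a count to be set beside the same 0.7%, measured 15.1, 16.5 and 13.1 RPKM against 10.5, 9.06 and 9.91 RPKM (adjusted p = 0.0477).

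The lower genes shared properties of their transcripts that the calling rule did not use. Their median gene length, recovered from the deposited values, was 5510 bases, against 2884 bases over all tested genes, and 61 of 76 (80.3%) were longer than that median. On GENCODE M21 transcripts their median coding length was 2940 bases against 1314, their median 3′ untranslated region 4024 bases against 1181, and their median GC content 41.6% against 50.3%. All but 1 of the 76 lay below the median GC content. The 21 higher genes showed the reverse, with a median length of 1835 bases, a 3′ untranslated region of 572 bases, a GC content of 52.8%, and 1 gene longer than the median. Over all tested genes, the median log2 fold change went from 0.08 in the shortest of 5 equal bins of gene length to -0.06 in the longest, and 43 of the 76 lower genes were in the longest bin. By GC content, 56 of the lower genes were in the lowest of 5 bins. A smooth correction of each library for gene length left 38 genes lower and 7 higher, and one for transcript GC content 33 and 6. The first of these kept 45 of the 97 calls and the second 39. Length and GC content thus moved with the calls, and their part was not tested beyond these corrections.

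Of the 37 tested genes in a list of chromatin regulators and other long nuclear proteins, none passed, where 0.7% of all genes did. Of these 37, 19 lay entirely below the vehicle libraries and 0 above, against 9.13% below and 15.3% above over all genes. The list, chosen with earlier results of these data known, leaves out Nipbl, Stag2, Pds5a, Ranbp2 and Tpr, which passed lower. Protein length is part of its definition, and gene length moved with the calls. The median log2 fold change of the list was -0.25, against 0.03 over all genes, and -0.09 after the correction for gene length. Atrx, a chromatin remodeller, measured 29.5, 32.4 and 31.4 RPKM with vehicle and 19.4, 18.9 and 24.4 RPKM with pirfenidone (log2 fold change -0.56, SE 0.10, limma adjusted p = 0.0529). Birc6, a giant ubiquitin-conjugating enzyme, measured 14.9, 16.6 and 16.8 RPKM against 10, 9.63 and 12.4 RPKM (adjusted p = 0.0542). In both genes pirfenidone library 3 was the highest of its group. Atm and Atr, the kinases that signal DNA damage, had log2 fold changes of -0.48 and -0.47 (adjusted p = 0.102 and 0.0665). Without pirfenidone library 3, 17 of the 37 passed, all lower, against 7.68% of all genes.

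Among the 21 higher genes, Ccl5 (RANTES, a chemokine made by T cells and natural killer cells; chromosome 11, 83525778 to 83530518) had the smallest p. It measured 17.5, 12.8 and 12 RPKM with vehicle and 35.9, 40.0 and 30.8 RPKM with pirfenidone. The lowest pirfenidone library was well above the highest vehicle library, and the controls stood higher still, at 45.1, 47.6 and 46.7 RPKM. The gene rose 2.53-fold (log2 fold change 1.29, SE 0.14, limma adjusted p = 0.00818). The adjusted p was 0.0601 without vehicle library 2 or without pirfenidone library 1, and below 0.05 without any other single library. With the 6 TGFα libraries alone it was 0.0583.

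Angptl7, a secreted angiopoietin-like glycoprotein that lies within an intron of Mtor (chromosome 4, 148495181 to 148500462), had the largest log2 fold change on the log2(RPKM + 1) scale among the higher genes that passed. It measured 22.2, 11.4 and 13.8 RPKM with vehicle and 40.7, 50.7 and 32.4 RPKM with pirfenidone, against 0.375, 0.125 and 0.287 RPKM in the controls. Mtor, in which it lies, measured 9.30, 9.16 and 9.67 RPKM with vehicle and 7.48, 7.54 and 9.36 RPKM with pirfenidone. Vehicle library 1 was the highest of its group for Angptl7 and pirfenidone library 3 the lowest of its own, and the groups did not overlap. The gene rose 2.61-fold (log2 fold change 1.36, SE 0.24, limma adjusted p = 0.0477), with an adjusted p as high as 0.212 when a single library was left out. It was the 1 gene of 24 in the list of VEGF, angiopoietin and angiopoietin-like genes to pass, against 0.152% of all genes passing higher. Mdk (midkine, a heparin-binding growth factor) measured 12.2, 16.1 and 19.7 RPKM against 35.3, 41.7 and 26.9 RPKM (adjusted p = 0.0826). Angptl2 measured 34.6, 25.2 and 26.1 RPKM against 83.7, 76.9 and 38.3 RPKM (adjusted p = 0.109).

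Mir99a, a microRNA gene of the miR-99 family, was 1 of 79 small RNA genes tested and the 1 that passed. Of all genes, 0.7% passed in either direction. The mature strands are shown with their seed, bases 2 to 8, in capitals (RefSeq, GRCm38.p6, chromosome 16).
mmu-miR-99a-5p: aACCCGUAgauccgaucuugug
mmu-miR-99a-3p: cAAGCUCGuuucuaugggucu
The gene Mir99a measured 3.30, 2.83 and 1.63 RPKM with vehicle and 8.08, 8.15 and 6.53 RPKM with pirfenidone, with controls at 6.40, 3.98 and 6.36 RPKM. On a gene of 65 bases these values rest on 4, 3 and 2 reads with vehicle and on 6, 7 and 6 reads with pirfenidone, so the fold is imprecise. It rose 2.93-fold (log2 fold change 1.28, SE 0.22, limma adjusted p = 0.0469), and its adjusted p reached 0.212 when a single library was left out. The hairpin is 65 bases long, and standard libraries of total RNA capture the mature strands poorly, so these values need not measure the mature microRNA.

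The other higher genes under the naming rule included genes known from blood cells and others. Lst1 (leukocyte-specific transcript 1, of myeloid cells) measured 13.9, 12.2 and 12 RPKM with vehicle and 30.5, 37.6 and 21.8 RPKM with pirfenidone (log2 fold change 1.15, SE 0.17, limma adjusted p = 0.0371). Tbc1d10c (carabin, a lymphocyte inhibitor of calcineurin and Ras) measured 4.94, 3.93 and 4.43 RPKM against 9.70, 8.47 and 8.25 RPKM (adjusted p = 0.0472). Plac8, expressed in monocytes and other blood cells, measured 52.8, 57.9 and 54.7 RPKM against 94.9, 101 and 80.7 RPKM (adjusted p = 0.0338). In these 3 genes the controls (19.0 to 22.0, 10 to 15.2 and 72.0 to 85.1 RPKM) lay above the vehicle libraries. Clec11a, a growth factor for bone-forming and blood cells, measured 16.7, 19.5 and 21.9 RPKM against 43.5, 37.4 and 29.3 RPKM (adjusted p = 0.0477). Neurl3, a ubiquitin ligase first described in lung inflammation, measured 8.31, 8.89 and 9.11 RPKM against 15.8, 18.7 and 12.7 RPKM (adjusted p = 0.047). Cmtm3 and Trabd2b, an inhibitor of WNT ligands, had log2 fold changes of 0.75 and 0.79 (adjusted p = 0.0393 and 0.0371). All of these groups were apart, and no call was kept in more than 3 of the 9 fits that left out 1 library.

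**Figure D3:**
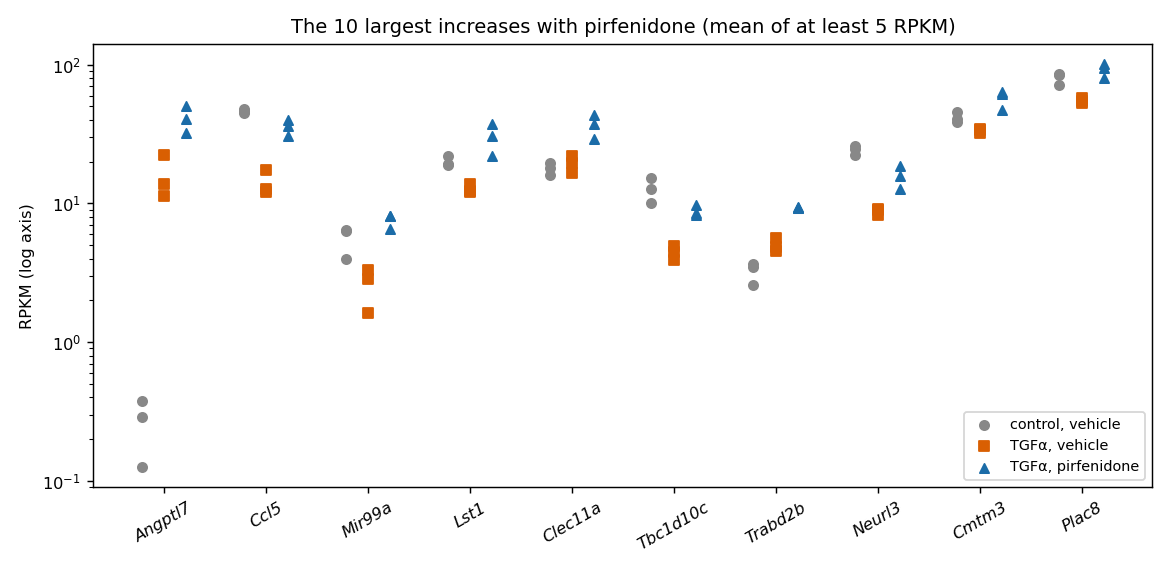
RPKM (log axis) in each of the 9 libraries for the 10 largest increases with pirfenidone among genes with a mean of at least 5 RPKM in the higher group. Each point is 1 library. The pirfenidone points lie above the vehicle points in every gene, from 30.8 to 40.0 against 12 to 17.5 RPKM in Ccl5.

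Fibrillar and fibril-associated collagens were not lower with pirfenidone. Of 10 tested, 0 passed, 5 lay entirely above the vehicle libraries and 0 below, and the median log2 fold change was 0.67. Over all genes 0.7% passed in either direction, the share to set beside each count of 0 that passed below. Of all genes 15.3% lay above and 9.13% below, with a median of 0.03. Col1a1, a chain of type I collagen, measured 143, 185 and 233 RPKM with vehicle and 433, 382 and 268 RPKM with pirfenidone (log2 fold change 0.95, SE 0.21, limma adjusted p = 0.0767). Col3a1, the chain of type III collagen, measured 387, 470 and 576 RPKM with vehicle and 1194, 1050 and 654 RPKM with pirfenidone (log2 fold change 0.99, SE 0.23, adjusted p = 0.0855). In both, pirfenidone library 3 was the lowest of its group, and all 3 pirfenidone libraries were above every vehicle library. Col1a2 measured 208, 276 and 332 RPKM against 597, 563 and 394 RPKM (adjusted p = 0.0747). Without pirfenidone library 3, 7 of the 10 passed, all higher, against 7.65% of all genes, with an adjusted p of 0.00921 for Col1a1 and 0.00621 for Col3a1. In the controls Col1a1 measured 83.1 to 92.9 RPKM and Col3a1 218 to 259 RPKM, so both TGFα groups lay above them.

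In several other matrix genes, too, pirfenidone library 3 was the one nearest to the vehicle libraries. Of 54 matrix glycoproteins and proteoglycans, 0 passed, 15 lay above and 2 below the vehicle libraries (15.3% and 9.13% over all genes), and the median log2 fold change was 0.41. Fn1 (fibronectin) measured 227, 263 and 333 RPKM with vehicle and 582, 478 and 302 RPKM with pirfenidone, where library 3 lay within the vehicle range (log2 fold change 0.69, SE 0.24, limma adjusted p = 0.158). Lum (lumican, a collagen-binding proteoglycan) measured 86.4, 67.8 and 96.0 RPKM against 298, 265 and 105 RPKM (adjusted p = 0.113). Lamb3 and Lama5, laminin chains of epithelial basement membrane, went the other way, with log2 fold changes of -0.57 and -0.52 (adjusted p = 0.122 and 0.155). Among 17 other collagens 0 passed, 5 lay above, 1 below and 11 overlapped, with a median of 0.27. Col6a2, 1 of those above, measured 59.4, 64.6 and 77.6 RPKM against 136, 128 and 91.5 RPKM (adjusted p = 0.0767). The 1 below was Col4a3, of alveolar basement membrane, with 18.7, 18.4 and 20.3 RPKM against 8.92, 9.02 and 16.2 RPKM (adjusted p = 0.13). Enzymes of collagen folding and cross-linking numbered 28 tested, with 0 that passed, 13 above, 1 below and a median of 0.34. Loxl2 (a lysyl oxidase that cross-links collagen) measured 22.7, 20.4 and 22.6 RPKM against 50.5, 49.2 and 26 RPKM (adjusted p = 0.112), while P4ha2, a prolyl hydroxylase subunit, measured 28.8, 27.8 and 25.1 RPKM against 20.8, 17 and 20.2 RPKM (adjusted p = 0.0638). Without pirfenidone library 3, 18 of the glycoproteins and 12 of the enzymes passed higher, against 7.65% of all genes. In the same fit 5 and 1 passed lower, against 7.68% of all genes.

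Contractile and activation markers of fibroblasts and smooth muscle did not pass either. Acta2 (smooth muscle actin, the classical myofibroblast marker) measured 32.7, 26.3 and 29.1 RPKM with vehicle and 65.0, 60.5 and 41.0 RPKM with pirfenidone, and the groups did not overlap (log2 fold change 0.87, SE 0.19, limma adjusted p = 0.0747). The controls were higher, at 77.3, 93.1 and 65.6 RPKM. Cnn1 (calponin, of smooth muscle) measured 5.81, 6.63 and 5.84 RPKM against 13.2, 9.02 and 11.7 RPKM (adjusted p = 0.0693). Over all genes 15.3% lay above the vehicle libraries and 9.13% below. Of 24 smooth muscle and pericyte markers 7 lay above and 0 below, with a median log2 fold change of 0.32. Of 22 activated-fibroblast markers 5 lay above and 0 below, with a median of 0.46. Wt1, a transcription factor of mesothelium, measured 8.49, 5.76 and 7.45 RPKM against 18, 19.6 and 8.40 RPKM, with library 3 within the vehicle range (log2 fold change 0.92, SE 0.32, adjusted p = 0.162). Of 33 mesenchymal regulators 11 lay above and 0 below. Of 26 genes of TGF-β ligands, receptors and targets, 0 passed and 5 lay above, a share near that of all genes. Among the 5 was the ligand Tgfb2, with 8.37, 8.55 and 9.12 RPKM against 19.4, 19.2 and 12.7 RPKM (adjusted p = 0.0731). Aurkb, a mitotic kinase, stood at 1.51, 2.97 and 3.06 RPKM with vehicle and at 1.70, 1.47 and 3.83 RPKM with pirfenidone, and the groups overlapped (log2 fold change -0.11, SE 0.36, adjusted p = 0.891). In bulk lung RNA, a change in the number of cells of a type and a change in RNA per cell cannot be told apart.

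Most T cell and B cell markers were higher in each pirfenidone library, library 3 included, than in any vehicle library. Of 25 tested T cell markers 17 lay entirely above the vehicle libraries and 0 below, with a median log2 fold change of 0.52. Of 19 B cell markers 12 lay above and 0 below (median 0.57), and of 15 natural killer and cytotoxic markers 7 and 0 (median 0.45). The shares over all genes were 15.3% and 9.13%. Ccl5 was the only member of the 3 lists to pass, where 0.7% of all genes passed in either direction. Tcf7, a transcription factor of naive T cells, measured 12, 11.9 and 9.82 RPKM with vehicle and 18.6, 15.8 and 18.1 RPKM with pirfenidone (log2 fold change 0.60, SE 0.11, limma adjusted p = 0.0588). Cxcr5, the chemokine receptor that guides B cells into follicles, measured 1.76, 2.62 and 1.95 RPKM against 3.31, 3.99 and 3.68 RPKM (adjusted p = 0.07). Nkg7, a cytotoxic granule protein, measured 5.74, 4.14 and 4.95 RPKM against 8.18, 12.6 and 9.75 RPKM (adjusted p = 0.0529). In all 3 genes the controls (18.7 to 23.1, 5.12 to 5.78 and 11.3 to 14.2 RPKM) lay above every vehicle library. The summed level of the T cell markers was 105, 94.7 and 88.5 RPKM with vehicle, 165, 146 and 138 RPKM with pirfenidone, and 180, 191 and 266 RPKM in the controls. Marker genes of thymus and lymph node stroma, tissue that could be taken along with the lung, summed to 66.2, 38.3 and 40.8 RPKM with vehicle and to 208, 215 and 55.8 RPKM with pirfenidone, and their part in the lymphocyte values was not tested. Most of that sum was Cxcl13, a B cell attracting chemokine, with 47.9, 21.5 and 24.1 RPKM against 188, 193 and 36.7 RPKM (adjusted p = 0.218).

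Of 29 tested markers of monocytes and interstitial macrophages, Plac8 alone passed, where 0.7% of all genes passed in either direction. In 5 of the 29 all 3 pirfenidone libraries lay above the vehicle libraries, a share near the 15.3% of all genes. None lay below, and the median log2 fold change was 0.63. The complement component C1qa, of interstitial macrophages, measured 124, 89.2 and 107 RPKM with vehicle and 289, 315 and 106 RPKM with pirfenidone (limma adjusted p = 0.266), and Folr2 2.97, 2.97 and 2.22 RPKM against 9.32, 11.1 and 3.48 RPKM (adjusted p = 0.132). The chemokine Ccl8 showed the split most plainly, with 15.1, 8.75 and 6.43 RPKM against 117, 201 and 10.5 RPKM (adjusted p = 0.236). Most markers of alveolar macrophages, the resident phagocytes of the airspace, went the other way. Of 26, 0 lay above and 8 below (9.13% of all genes lay below), with a median of -0.20, while 7 had a log2 fold change above 0. Cidec, the member with the smallest p, was among those 7 (log2 fold change 1.62, adjusted p = 0.165). It measured 4.76, 1.77 and 0.914 RPKM against 16.5, 11.6 and 3.04 RPKM, and the groups overlapped. Ear2, an eosinophil-associated ribonuclease of these cells, measured 39.3, 40.9 and 33.4 RPKM against 22.9, 18 and 26.6 RPKM (adjusted p = 0.382). With the 6 TGFα libraries alone its limma adjusted p was 0.117. The controls, which enter the estimate of the spread, were uneven in these markers, with sums of 1295, 1459 and 10492 RPKM. Among 41 inflammatory cytokines and chemokines Ccl5 alone passed, a count to be set beside the same 0.7%. Of 21 complement genes 0 passed, 5 lay above and 1 below (15.3% and 9.13% of all genes), with a median of 0.62. C2 measured 9.97, 7.74 and 8.98 RPKM against 22.2, 19.8 and 11.7 RPKM (adjusted p = 0.0814).

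Many of the markers of alveolar type 2 cells lay below the vehicle libraries. Of 21 type 2 cell markers 0 passed, 0 lay above and 12 lay entirely below the vehicle libraries, against 15.3% and 9.13% of all genes, with a median log2 fold change of -0.54. Hc (complement C5) measured 89.1, 102 and 106 RPKM with vehicle and 45.4, 43.3 and 68.4 RPKM with pirfenidone (log2 fold change -0.93, SE 0.17, limma adjusted p = 0.055). Lpcat1, an enzyme of surfactant lipid synthesis, measured 164, 171 and 153 RPKM against 84.2, 92.3 and 139 RPKM (adjusted p = 0.1). Abca3, the lipid transporter of lamellar bodies, measured 103, 105 and 97.2 RPKM against 51.4, 53.5 and 95.8 RPKM (adjusted p = 0.143). Pirfenidone library 3 was the highest of its group in these genes, and the summed level of the list was 29619, 31302 and 30217 RPKM with vehicle against 20993, 21479 and 28732 RPKM with pirfenidone. Of 17 type 1 cell markers 1 lay above and 2 below, the latter a share near that of all genes, with a median of -0.37. Pdpn, counted here also as a lymphatic endothelial marker, had the smallest p of the list and was the 1 above. It measured 36.0, 36.7 and 40.7 RPKM against 49.1, 47.1 and 50.1 RPKM (adjusted p = 0.064). Scnn1g measured 32.5, 32.7 and 32.3 RPKM against 20.6, 20.3 and 25.5 RPKM (adjusted p = 0.119). Ager, which marks the flat gas-exchange cells, measured 357, 408 and 386 RPKM against 243, 223 and 408 RPKM (adjusted p = 0.282). Without pirfenidone library 3, 10 type 2 and 7 type 1 markers passed lower and 0 and 1 higher, against 7.68% and 7.65% of all genes. Of 27 genes of EGF receptor ligands and ERK feedback 0 passed, 5 lay above and 3 below, both shares near those of all genes, with a median of 0.00. Erbb3, the kinase-impaired member of the receptor family, measured 19.5, 24.2 and 21.9 RPKM against 6.40, 6.92 and 15.2 RPKM (adjusted p = 0.0764), and Etv4, an ETS factor induced by ERK, 6.43, 7.0 and 9.39 RPKM against 15.6, 15.9 and 10 RPKM (adjusted p = 0.0884). Mycn, a MYC-family factor, measured 54.2, 140 and 120 RPKM against 12, 12.6 and 109 RPKM, with library 3 inside the vehicle range (adjusted p = 0.215).

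**Figure D4:**
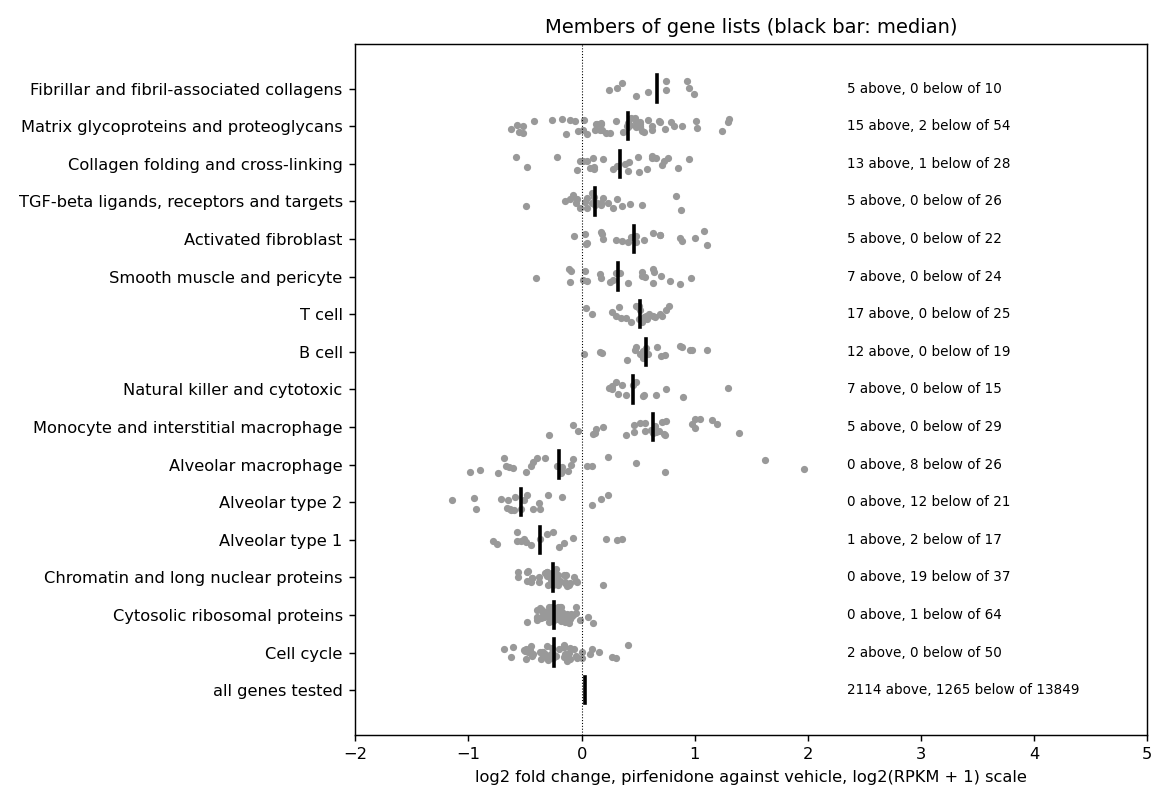
Log2 fold change of pirfenidone against vehicle (horizontal axis) for each tested member of 16 gene lists, with all genes tested shown by their median alone. Grey points are members, the black bar is the median of the list, and the numbers at the right give members that lay entirely above or below the vehicle libraries. The fibrillar collagen, monocyte, B cell and T cell lists have medians of 0.67, 0.63, 0.57 and 0.52, and type 2 cell markers of -0.54.

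Of 37 lipid synthesis genes 1 passed, against 0.7% of all genes. Acaca (acetyl-CoA carboxylase, the rate-limiting enzyme of fatty acid synthesis) measured 20.0, 18.6 and 17.9 RPKM with vehicle and 12.9, 11.6 and 13.6 RPKM with pirfenidone (log2 fold change -0.53, SE 0.08, limma adjusted p = 0.0371). The groups were apart, the controls stood at 11.6, 11.1 and 11.7 RPKM, and the call was kept in 2 of the 9 fits that left out 1 library. Of the 37 tested fatty acid and cholesterol genes 4 lay above and 11 below (15.3% and 9.13% of all genes), with a median log2 fold change of -0.13. Acly, which makes cytosolic acetyl-CoA, measured 94.3, 100 and 92.1 RPKM against 71.8, 73.7 and 80.3 RPKM (adjusted p = 0.0746). Fasn (fatty acid synthase) measured 130, 130 and 115 RPKM against 76.1, 63.2 and 96.7 RPKM (adjusted p = 0.108). The desaturases Fads1 and Fads2 were on the other side, with log2 fold changes of 0.36 and 0.27 (adjusted p = 0.0783 and 0.0835).

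Of 23 clock genes 0 passed, 7 lay above the vehicle libraries, 3 below and 13 overlapped, where 15.3% of all genes lay above and 9.13% below. The 3 below were the activators Clock, Arntl (BMAL1) and Npas2. Arntl measured 7.10, 8.63 and 10.6 RPKM with vehicle and 3.34, 4.08 and 5.55 RPKM with pirfenidone (log2 fold change -0.88, SE 0.17, limma adjusted p = 0.0664), Clock 11.6, 11.6 and 12.2 RPKM against 6.76, 7.83 and 8.33 RPKM (adjusted p = 0.055). Those above included the repressors Per2 and Per3 and the output factors Dbp, Hlf and Tef. Dbp measured 27.6, 21.1 and 16.7 RPKM against 55.3, 50 and 33.5 RPKM (log2 fold change 1.05, SE 0.22, adjusted p = 0.07), and Per3 12.9, 12.9 and 10.6 RPKM against 24.3, 18.2 and 22.1 RPKM (adjusted p = 0.0692). The time of day at which lungs were taken is not given in the sources used here, and it cannot be told apart from the drug. Of 27 immediate early genes, which respond to handling and time to freezing, 10 lay above and 1 below, with a median of 0.19.

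Protein synthesis and proliferation lists held no gene that passed, where only 0.7% of all genes passed in either direction. Of 64 cytosolic ribosomal protein genes 0 lay above and 1 below (15.3% and 9.13% of all genes), with a median log2 fold change of -0.24, and Rps19 measured 703, 956 and 827 RPKM with vehicle and 618, 560 and 715 RPKM with pirfenidone (limma adjusted p = 0.178). Of 50 cell cycle genes 2 lay above and 0 below, with a median of -0.24. Mki67, of dividing cells, measured 3.21, 8.29 and 8.27 RPKM against 2.26, 2.61 and 6.39 RPKM (adjusted p = 0.424), where vehicle library 1 lay with pirfenidone libraries 1 and 2. Cyclin D2 (Ccnd2) measured 32.5, 38.4 and 39.1 RPKM against 54.2, 49.6 and 42.9 RPKM (adjusted p = 0.108). With vehicle library 1 and pirfenidone library 3 both left out, 32 ribosomal protein genes and 10 cell cycle genes passed lower and 0 and 1 higher. Of all genes, 11.9% passed lower and 9.97% higher in that fit.

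Cardiac muscle genes mark the muscle sleeve of the pulmonary veins in the mouse lung. Of 19 tested, 0 passed, 9 lay above and 1 below (15.3% and 9.13% of all genes), and the median log2 fold change was 1.05. Their summed level overlapped between groups, at 380, 197 and 97.3 RPKM with vehicle and 353, 536 and 358 RPKM with pirfenidone. Myl7 (atrial myosin light chain) measured 16.3, 8.30 and 11 RPKM with vehicle and 38.9, 28.6 and 44.5 RPKM with pirfenidone (log2 fold change 1.60, SE 0.35, limma adjusted p = 0.0767), with controls at 49.4, 107 and 43.5 RPKM. Pln (phospholamban) measured 3.66, 1.8 and 2.20 RPKM against 8.22, 6.89 and 9.62 RPKM (adjusted p = 0.0692). Both genes had groups that did not overlap. Myh7 was the 1 member below, with 16.9, 21.5 and 18.2 RPKM against 8.12, 10.3 and 13.5 RPKM (adjusted p = 0.0971). Skeletal muscle markers lay neither above nor below in any of 19 genes. Adipocyte markers had a median of 1.09 over 18 genes with 2 above and 1 below, and Adipoq, the adipocyte hormone, measured 10.6, 1.19 and 0.430 RPKM against 27.6, 30.3 and 4.37 RPKM (adjusted p = 0.178). With the muscle and fat genes left out and each library rescaled, 23 genes were higher and 77 lower, and all 97 calls were kept. That fit removed only the listed genes and none of the 97. It therefore cannot show whether carried-over tissue shaped the other genes, which was not tested.

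The levels of the 97 genes in control lungs are given beside the comparison, which shares its vehicle libraries with any comparison of vehicle and control. Of the 76 lower genes, the vehicle libraries lay entirely above the controls in 72 and entirely below them in 2. Of the 21 higher genes, the vehicle libraries lay entirely below the controls in 12, as in Ccl5 and Plac8, and entirely above them in 5, as in Angptl7. Over all tested genes, they lay entirely above in 3513 and below in 2609. Because both differences use the same 3 vehicle libraries, an error in those libraries moves both in opposite directions, and no test of a return to the control level was made.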

How the data were processed

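Total lung RNA of 9 libraries, 3 per group, was sequenced, and the authors deposited 1 table of RPKM values per gene and library. Per the submitters' processing notes, bcl2fastq, CASAVA 1.8, TopHat, DESeq and the mm10 build were used, with their roles not stated there. No annotation, counting method, strand setting or filter is stated in those notes or in the labels. Whole reads per gene were recovered from the steps in the deposited RPKM values (tolerance 0.0001) and gave the read totals and gene lengths, with lengths for 99.97% of genes. RPKM scaled by gene length and by reads leaves low genes with few reads, so their values are less precise.

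Values were tested as log2(RPKM + 1) with limma 3.58.1 in R 4.3.3, in 1 model over all 9 libraries with a variance trend, 6 residual and 2.67 prior degrees of freedom, and Benjamini-Hochberg adjustment over 13849 genes. A fold change on the log2(RPKM + 1) scale understates the change of low genes. Folds in words are ratios of group means. Tables were made with Python 3.11.15, numpy 2.4.6, pandas 2.3.3 and matplotlib 3.10.9, and the fit was tested on simulated data. Transcript lengths and GC content came from GENCODE M21, positions and sequences from RefSeq GRCm38.p6.

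The genes and the 67 gene lists were chosen with earlier results of these data known. Genes named by rule were 7 genes of the model, the 10 largest increases and decreases that passed with at least 5 RPKM in the higher group, up to 3 members of each pathway list that passed, and the 2 members of each cell type list with the smallest p. Other named genes are members of a counted list or were chosen after their values were seen, as were the genes whose promoters are shown. The alternatives tried are given with their effect below, where those without a control library, without muscle and fat genes and with GC correction were chosen after seeing the data. Some genes are not reported here.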

Additional observations from a re-analysis of the deposited data

How the results depend on the processing

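The number of genes that passed depended on the processing. Against 97 genes (21 higher, 76 lower; 7 members of the gene lists), leaving out 1 library gave 10 to 2124 genes, 0 to 1060 higher, 10 to 1064 lower and 1 to 320 list members. With vehicle library 1 and pirfenidone library 3 both left out, 3032 genes passed (1381 higher, 1651 lower, 464 list members). Array weights gave vehicle library 1, pirfenidone library 3 and control library 3 weights of 0.309, 0.226 and 0.225. Vehicle library 3 had a weight of 8.178 against 1.041 for vehicle library 2, so the vehicle mean rested mostly on 1 library. That fit called 6463 genes (3296 higher, 3167 lower, 858 list members). The 6 TGFα libraries alone called 11, all lower, with 0 higher and 1 list member. Correction for gene length called 45 (7 higher, 38 lower, 3 list members), for GC content 39 (6, 33 and 4) and for both 39 (8, 31 and 3). No filter on low values called 63 with 12 higher and 4 list members, and a pseudocount of 0.1 called 13 higher and 4 list members. List members that passed numbered 13 above 5 RPKM, 14 with median-centred libraries and 16 with median-of-ratios scaling. The cause of these differences was not tested.

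With the replicate number of the labels as a block, 21 genes passed (1 higher, 20 lower, 2 list members). Same-numbered vehicle and pirfenidone libraries deviated from their group means with correlations of 0.407, -0.136 and 0.458, so the numbers were not taken as a pairing. None of the 97 genes changed sign under any alternative. Of the 100 genes followed under every alternative, Aurkb and Skp2 turned sign. Cidec, Pdpn and Scnn1g, also given by value, were not among the 100. Aurkb went to 0.01 without vehicle library 3, 0.01 without pirfenidone library 1 and 0.07 without pirfenidone library 2, within a range of -0.41 to 0.07 over the fits without 1 library. Skp2 went to -0.07 with array weights, -0.15 without vehicle library 1 and pirfenidone library 3, and -0.05 without pirfenidone library 3, within -0.05 to 0.21 over the fits without 1 library. Of 31 list medians 3 turned sign when 1 library was left out. Skeletal muscle went from 0.15 to -1.09 without vehicle library 3 and to -0.84 without pirfenidone library 2, Notch from 0.05 to -0.01 without pirfenidone library 3, and heat shock from -0.07 to 0.01 without pirfenidone library 1. The median of the chromatin list moved from -0.25 to -0.09 with the length correction. The depth limits what can be said of genes near 1 RPKM.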
